A study of Mus musculus with 3 samples.

Results

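Mature medullary thymic epithelial cells (mTECs) of wild-type mice are described here from 1 microarray library, the only wild-type library among the 3 libraries of the series. Its members are genes: of the 34760 probe sets on the array, 21640 carry exactly 1 gene symbol, and the brightest of these for each symbol gave 19937 genes, each with a log2 level and a rank. The cells came from mice labelled Sirt1fl/fl (WT) on the strain given as C57b/6, killed at 6 weeks of age, so the wild-type mice carried floxed Sirt1 alleles but no Cre. Thymi of typically 3 mice were pooled, and EpCAM+, CD45-, Ly51low, MHC-II high cells were sorted. Total RNA of about 30000 sorted cells was amplified and hybridised to an Affymetrix Mouse Gene 1-ST array. The other libraries, from mice without Aire and from mice without Sirt1 in Foxn1-expressing epithelium, are not compared here. The title, the genotype and the description of the wild-type library name the same group.

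Mature mTECs present the body's own proteins to developing T cells, and T cells that bind them too strongly are deleted or diverted into the regulatory lineage. To do so they transcribe many genes that are otherwise restricted to single organs, such as hormones, milk proteins and digestive enzymes. The transcriptional regulator Aire drives many of these genes, and Fezf2 drives others. Each such gene is known to be transcribed in a small share of mTECs at a time, and some mTECs take on the gene programmes of whole cell types such as tuft, microfold, ciliated or skin cells.

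Probe intensity in the deposited column ran from 9.19 to 24241 on the linear scale, with a median of 107.8 over all probe sets. Levels below are log2 of this intensity. The background was set by the 1027 olfactory receptor (Olfr) genes, a family that is transcribed mainly in the nose: their 95th percentile was 6.02 on the log2 scale, an intensity of 64.8. A gene brighter than this is called above background here, and a gene at or under it is called within background. There was 1 library and no replicate, so no value has an error and no test was made. Each probe set also hybridises with its own efficiency, so levels and ranks order genes by brightness and not by transcript number. In a pool of cells, fewer cells that transcribe a gene and less of its RNA per cell cannot be told apart.

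Of the 19937 genes, 14498 (72.7%) were above background and 5439 were within it. Of all genes, 10794 (54.1%) lay at least 1 log2 unit above background, a stricter level that is given beside the first. The brightest 10% of genes, 1994 in all (10.0%), began at 9.66. The counts of every list below are to be read against these shares of all genes. The median over all genes was 7.24, with quartiles of 5.89 and 8.55. Signal was concentrated in few genes: the brightest 1%, 199 genes, held 17.1% of the summed intensity, and the brightest 10% held 52.3%.

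**Figure D1:**
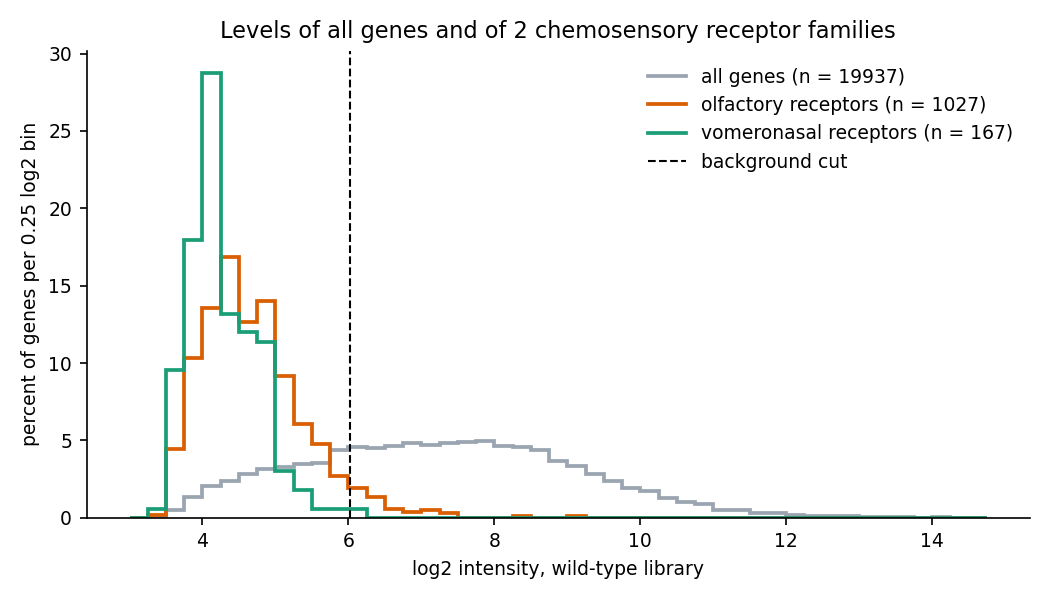
Distribution of log2 intensity in the wild-type library. The horizontal axis is log2 intensity in bins of 0.25, the vertical axis is the percent of each group's genes per bin, and the dashed line is the background of 6.02. The 1027 olfactory receptor genes centred on a median of 4.58 and the 167 vomeronasal receptor genes on 4.20, while the median of all 19937 genes was 7.24.

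Families of chemosensory receptors outside the one that set the background lay mostly within it. The vomeronasal receptors, pheromone receptors of the nose, had 0 of 167 genes above background, and their brightest, Vmn2r26, reached 6.00. None of the 13 trace amine receptors, a further family of nasal receptors, was above background, with Taar5 the brightest at 5.62. The bitter taste receptors differed in that 9 of 34 were above background and 5 lay at least 1 log2 unit above it. Tas2r108 was at 8.36, Tas2r118 at 7.94 and Tas2r117 at 7.66. By construction about 1 in 20 olfactory receptor genes exceeded the background, in all 52. Olfr1174 at 9.03 and Olfr767 at 8.30 stood apart from the rest of that family, whose next member, Olfr462, was at 7.47.

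The genes that mark mature mTECs were all bright. Of the 7 fixed markers, 7 were in the brightest 10%. The MHC class II chain gene H2-Aa was at 13.70 and ranked 8 among all genes. Aire was at 11.97 and ranked 155. The tight junction gene Cldn4 was at 11.87 and the costimulatory ligand gene Cd80 at 11.82. Epcam, the epithelial adhesion molecule used in the sort, was at 11.01. Ccl22, a chemokine of mature mTECs, was at 10.77, and Foxn1, the transcription factor that thymic epithelium depends on, was at 10.47. None of these markers went against the labelled cell type.

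The genes of the antigens selected for in the sort were bright. The class II genes H2-Ab1 and H2-Eb1 were at 13.58 and 13.47. The gene of the antigen selected against, Ptprc (CD45), was at 7.77, and Enpep, which encodes the Ly51 antigen that was gated low, was at 7.95. Both were above background and over the all-gene median of 7.24, but below the brightest 10%. Without a library of unsorted cells, these 2 values cannot show how far the gate removed such cells. These 2 values are probe brightness, and the gate acts on surface protein.

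Genes of mature medullary epithelium formed one of the brightest of the lists, with a median of 10.51. Above background were 31 of 31, against 72.7% of all genes, and 23 were in the brightest 10% (74.2%, against 10.0%). The brightest were the keratin gene Krt8 at 13.44, Ccl19 at 13.33 and the keratin gene Krt18 at 12.47. Fezf2, the second regulator of tissue antigens, was at 11.97, and Hdc, the histidine decarboxylase that makes histamine, was at 11.88. The dimmest members were Prdm1 at 7.67, Ltbr, a receptor that drives mTEC maturation, at 7.57, and the chemokine gene Xcl1 at 6.81. Over all epithelial lists together, 161 of 168 genes (95.8%, against 72.7% of all genes) were above background and the median was 9.25. In the brightest 10% were 71 (42.3%, against 10.0%).

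Antigen presentation genes were above background in nearly every case. On the class II side, 16 of 17 genes were above background (94.1%, against 72.7% of all genes). In the brightest 10% were 12 (70.6%, against 10.0% of all genes). Cd74, the invariant chain, was at 13.53, H2-Eb2 at 12.61 and Ifi30, a lysosomal thiol reductase, at 12.12. The exception was H2-Ea, at 5.60, a chain that mice of the labelled strain are known not to transcribe. Among the regulators of class II genes, Rfx5 was at 8.64, Rfxank at 8.27 and Rfxap at 7.45; Ciita, the class II transactivator, was at 9.75. On the class I side, 12 of 12 genes were above background and 10 were in the brightest 10% (83.3%, against 10.0% of all genes). B2m, the light chain, was at 13.64, and the chaperones Calr and Canx were at 12.65 and 12.11. The dimmest was the trimming peptidase Erap1 at 8.48.

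Costimulatory and checkpoint ligands were above background for 12 of 13 genes (92.3%, against 72.7% of all genes). Beside Cd80, Cd40 was at 11.55, Icosl at 10.73 and Cd274, which encodes PD-L1, at 10.51. Tnfsf4, the ligand of OX40, was within background at 5.25. All 20 chemokines on the array were above background, and 11 were in the brightest 10%. Ccl19, which draws maturing thymocytes into the medulla, was at 13.33. The interferon-induced chemokines Cxcl10 and Cxcl9 were at 13.01 and 12.21, Ccl25 was at 12.53 and Ccl5 at 12.18. Xcl1 at 6.81 and Cxcl12 at 6.12 were the dimmest. For some of these genes the level depended on the probe set: Ccl19 had 4 probe sets from 13.33 down to 8.25, Ccl25 ran from 12.53 to 6.31, and Cd80 from 11.82 to 9.54.

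Proteins reported to work with Aire were above background for 19 of 19 genes, against 72.7% of all genes, with a median of 8.58. At least 1 log2 unit above it were 18 of them (94.7%, against 54.1% of all genes). Sirt1, the deacetylase encoded by the floxed gene, was the brightest at 11.40. Atf7ip, a partner of the methyl-DNA binding protein Mbd1, was at 10.99, and the acetyltransferase gene Crebbp was at 10.52. Hnrnpl, a splicing factor, was at 10.05, and Cdk9, the kinase that releases paused RNA polymerase, was at 9.75. The DNA repair genes Xrcc5 and Xrcc6 were the dimmest, at 7.20 and 6.51. Probe sets disagreed here as well: Atf7ip had a second probe set at 7.43, and Top2a, a topoisomerase, read 8.59 in one and 3.91 in the other.

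**Figure D2:**
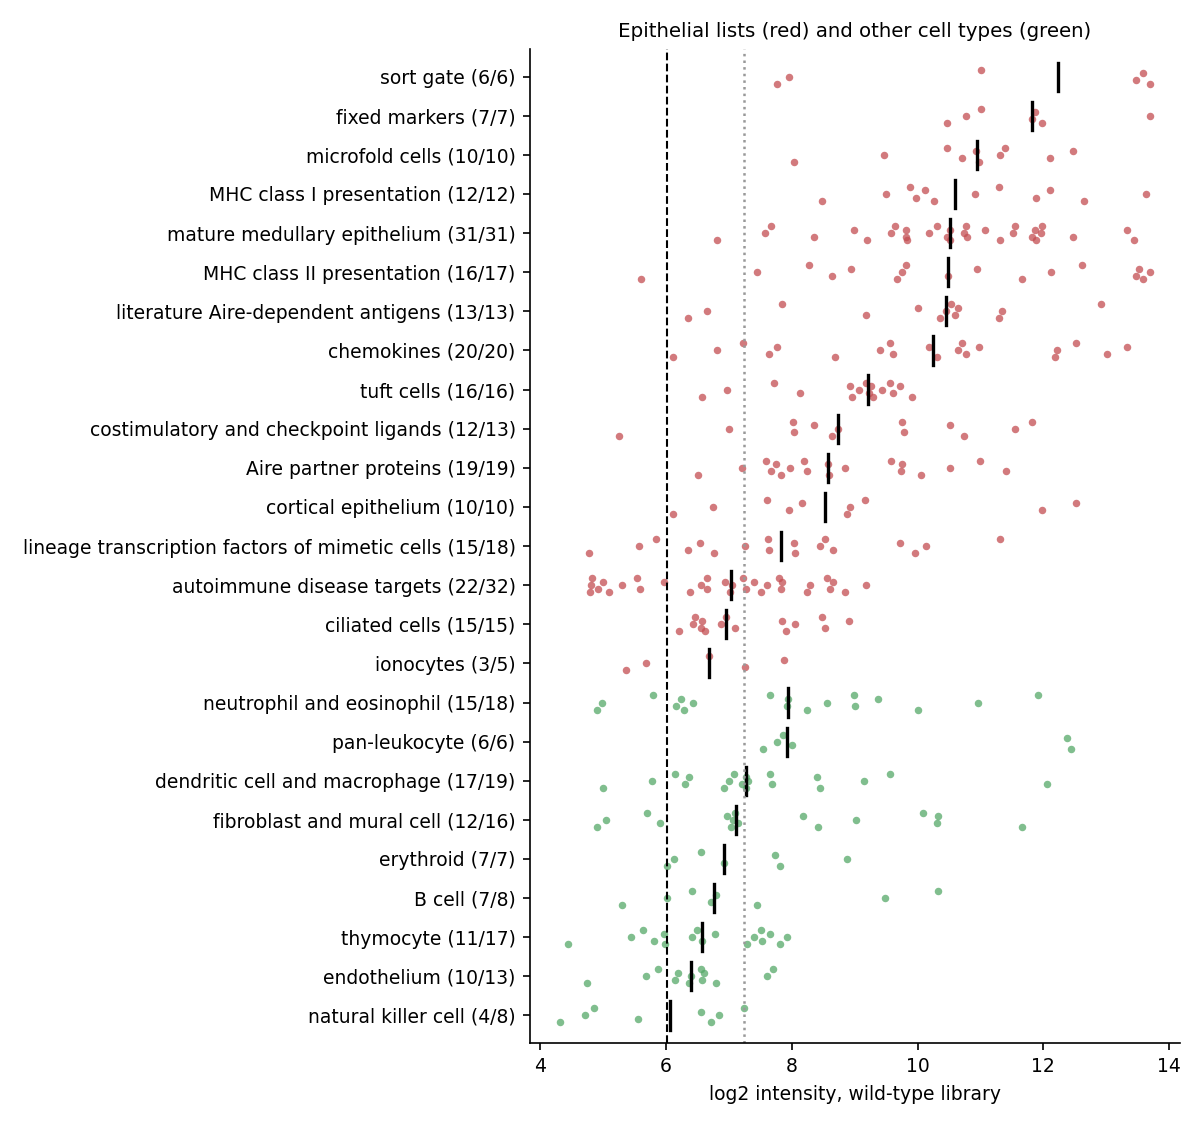
Log2 intensity of each gene in the epithelial lists (red) and in the lists of other cell types (green), 1 point per gene. Vertical ticks are list medians, the dashed line is the background of 6.02, the dotted line is the all-gene median of 7.24, and the numbers after each name are genes above background over genes on the array. Mature medullary epithelium centred on 10.51 and natural killer cell genes on 6.06.

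The brightest genes mixed housekeeping with antigen presentation. Leaving out the small RNA genes Rn7sk, Rpph1 and Rny3, which ranked 1 to 3, the 30 brightest began with Actb, the cytoskeletal actin, at 14.15. Then came the ribosomal protein gene Rps6 at 14.05, the thioredoxin gene Txn1 at 14.03 and Srgn, a proteoglycan of secretory granules, at 13.85. The class II genes H2-Aa, H2-Ab1, Cd74 and H2-Eb1 and the class I light chain B2m were all among these 30, as were Krt8 and Ccl19. Translation was represented by Eef1a1 at 13.61 and by the ribosomal genes Rpl10a, Rpl28, Rplp0, Rpl36, Rplp1, Rpl10 and Rpl9, between 13.44 and 13.05. Mitochondrial energy genes were the mitochondrially encoded COX2 at 13.29 and ND3 at 13.23, the carrier gene Slc25a5 at 13.35 and the complex I gene Ndufc2 at 13.12. The rest were Hspa8, Tpt1, Ly6e, H4c4, S100a11 and Mt2, between 13.45 and 13.12, and Reg3g at 13.09.

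Reg3g was the only gene of the tissue lists among these 30. It encodes an antibacterial lectin of the intestine. The composition of the 30 depended on the probe set rule: 18 of them remained when probe sets of a gene were averaged, 18 with the dimmest probe set and 16 among genes with 1 probe set. Ribosomal genes such as Rps6 and Rpl36 left in all of these cases, as did Ccl19, Hspa8, Slc25a5, Tpt1 and ND3. Csn2, Cxcl10, Krt17 and Ptgs2 were among those that entered.

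Core machinery was above background almost throughout, and the members within background were mostly copies known to be used in other tissues. Of the cytosolic ribosomal protein genes, 57 of 60 were above background with a median of 11.09. The exceptions were Rpl10l at 5.69, Rpl3l at 4.68 and Rpl39l at 4.24, paralogs known from testis or muscle. Of the proteasome subunits, 38 of 39 were above background, the exception being the testis form Psma8 at 4.64; Psmb3 was the brightest at 12.04. Psmb11, the subunit of the cortical thymoproteasome, was at 6.74. In the respiratory chain and ATP synthase, 76 of 77 genes were above background and the exception was the testis form Cox7b2 at 4.33.

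Genes of the thymic cortex were above background for 10 of 10 genes, against 72.7% of all genes, although the gate was set on medullary cells. At least 1 log2 unit above it were 8 of them (80.0%, against 54.1% of all genes). Ccl25 at 12.53 and Tbata at 11.99 were the brightest. Pax1, a transcription factor of the pharyngeal pouches, was at 9.16, and Dll4, the Notch ligand that commits progenitors to the T lineage, was at 8.92. Prss16, the thymus-specific serine protease, was at 8.16. Kitl at 7.61, Psmb11 at 6.74 and Cxcl12 at 6.12 were the dimmest. Ccl25 is also known from medullary cells, so the list is not specific to the cortex.

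Gene lists of cell types that mTECs are known to mimic differed in brightness. Microfold cells, which pass antigen through gut epithelium, had 10 of 10 genes above background, against 72.7% of all genes. In the brightest 10% were 8 of them (80.0%, against 10.0% of all genes). Anxa5 was at 12.47, Pglyrp1 at 12.11, the bacterial uptake receptor gene Gp2 at 11.40 and the transcription factor gene Spib at 11.30. Spib also stands in the mature medullary epithelium list, so not every gene here is particular to microfold cells. Tuft cells, chemosensory cells that release interleukin 25, had 16 of 16 above background and a median of 9.20. Rgs13 was at 9.91, their master regulator Pou2f3 at 9.72, and the taste signalling genes Plcb2 and Gnat3 at 9.61 and 9.55. Il25 itself was at 6.57 and Chat, which makes acetylcholine, at 6.97.

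Ciliated cell genes were all above background too, 15 of 15, against 72.7% of all genes. However, 7 lay at least 1 log2 unit above it (46.7%, against 54.1% of all genes) and 0 were in the brightest 10%. Their median of 6.95 was under the all-gene median of 7.24. Mcidas, the switch to multiple cilia, was at 8.91, the dynein gene Dnah9 at 8.48 and the regulator Foxj1 at 8.05. The axonemal genes Ccdc39 and Tekt2 were at 6.42 and 6.20. Ionocyte genes were above background for 3 of 5, with the chloride channel gene Cftr at 7.87 and Foxi1 at 7.26. Among the lineage transcription factors of such cells, 15 of 18 were above background. Insm1, of neuroendocrine cells, was at 10.14, Foxa1 at 9.96 and Hnf4g, of enterocytes, at 8.66. Ptf1a, of pancreatic acinar cells, at 5.83, Foxa3 at 5.58 and Neurod1 at 4.77 were within background.

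Tissue-restricted genes were taken from lists for single organs. Of the 453 genes of 24 tissue lists on the array, 306 (67.5%) were above background, against 72.7% of all genes, and 210 (46.4%) lay at least 1 log2 unit above it, against 54.1%. Their median was 6.77, below the all-gene median of 7.24. In the brightest 10%, a level chosen after the data were seen, were 56 (12.4%), against 10.0% of all genes; over the brightest Olfr gene (9.03), the shares were 15.01% and 17.42%. Of the 24 lists, 17 had at least 1 member there. The share above background was over that of all genes in 11 lists, and the median was over that of all genes in 7.

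**Figure D3:**
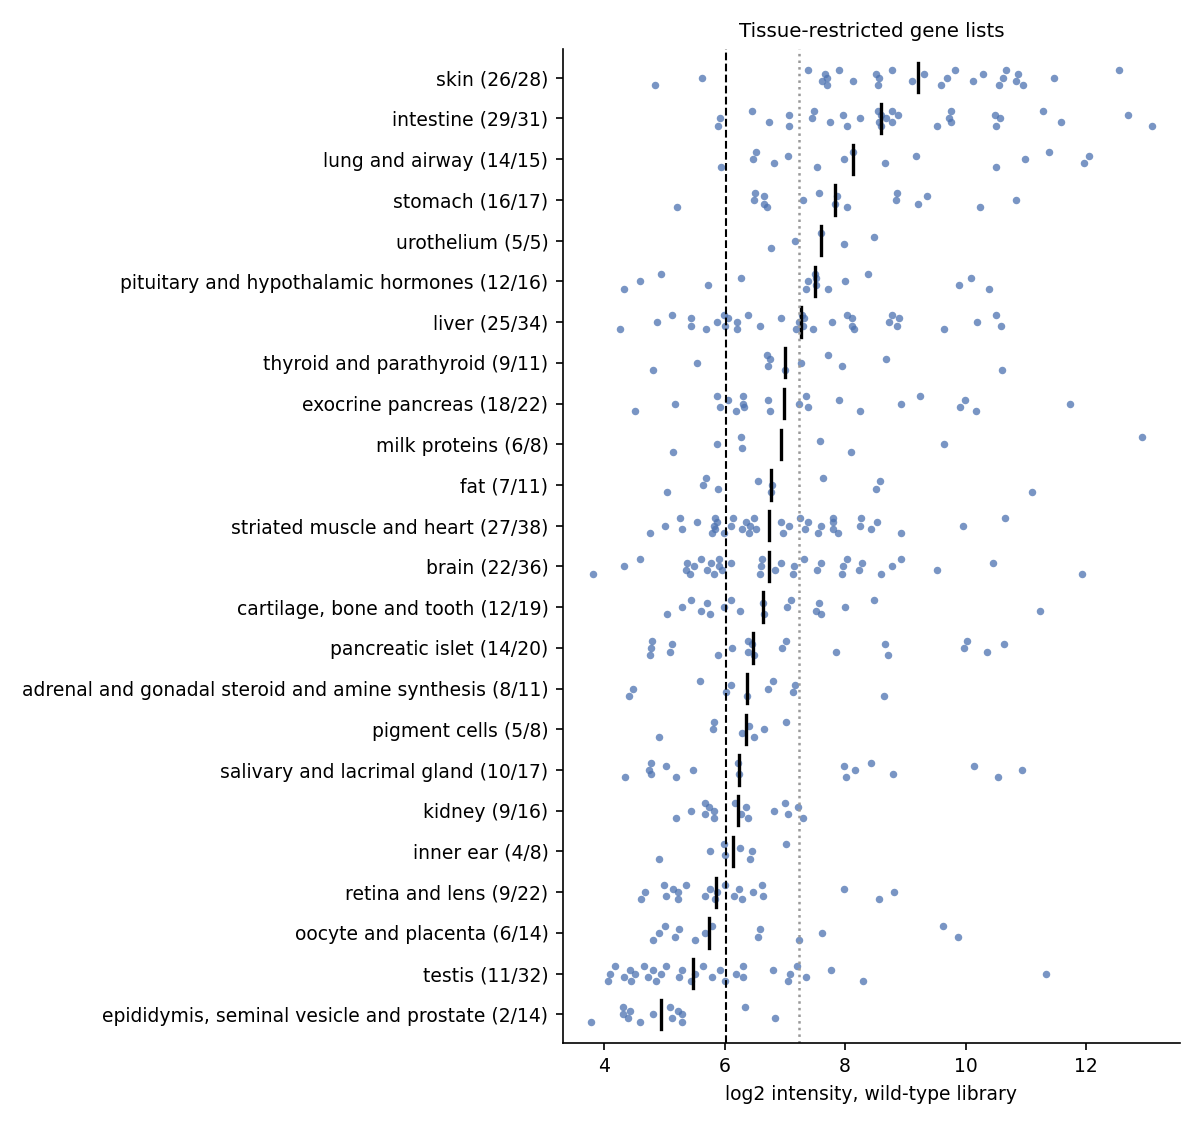
Log2 intensity of each gene in the 24 tissue lists, 1 point per gene, ordered by list median. Vertical ticks are medians, the dashed line is the background of 6.02, the dotted line is the all-gene median of 7.24, and the numbers are genes above background over genes on the array. Skin (median 9.20) and intestine (8.59) were at the top, and testis (5.47) and epididymis, seminal vesicle and prostate (4.95) at the bottom, yet single bright genes appeared in lists with low medians.

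Barrier tissues stood highest. In the intestine list 29 of 31 genes were above background and 10 were in the brightest 10%. Reg3g was at 13.09, the Paneth cell lysozyme gene Lyz1 at 12.70, the apolipoprotein gene Apoa4 at 11.58 and the trefoil peptide gene Tff3 at 11.29. The chloride channel regulator gene Clca1 was at 10.56 and Lgals4, an intestinal galectin, at 10.50. Cdx2, a master regulator of intestinal identity, was at 6.45, and the lactase gene Lct and Reg3a were within background at 5.92 and 5.90. Lyz1 and the macrophage lysozyme gene Lyz2, which was at 12.06, are near-identical copies whose signals may not be separate.

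The promoter of Reg3g is shown because Reg3g is the brightest tissue-list gene whose promoter holds TATAAA, the letters of a TATA box, at the usual place. The 150 bases before the start come from the RefSeq promoter table of build GRCm38.p6, at chr6:78468875-78469024 on the minus strand, with the motif in capitals. Its match begins 27 bases before the start.
Reg3g: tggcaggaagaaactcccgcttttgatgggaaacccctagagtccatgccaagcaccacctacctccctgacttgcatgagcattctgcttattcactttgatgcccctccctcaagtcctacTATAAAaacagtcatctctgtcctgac
The promoter of the lung phosphate transporter gene Slc34a2, itself at 10.50, is shown as that of the brightest tissue-list gene with a CpG-rich window and without the letters TATAAA at that place. It lies at chr5:53049203-53049352 on the plus strand, with each CG in capitals.
Slc34a2: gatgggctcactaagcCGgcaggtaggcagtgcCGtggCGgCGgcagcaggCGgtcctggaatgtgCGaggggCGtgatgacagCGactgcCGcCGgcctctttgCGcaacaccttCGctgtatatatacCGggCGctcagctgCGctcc
The Slc34a2 stretch does hold a related run, TATATATA, left in lower case, that begins 29 bases before the start; this run was searched for after the sequence was seen, and 0.107% of all windows hold it at that place. The Slc34a2 stretch holds 15 CG against 1 in that of Reg3g. Over the whole 300-base RefSeq windows, the observed over expected CG content was 0.862 for Slc34a2 and 0.0601 for Reg3g. TATAAA on the plus strand, lying between 40 and 15 bases before the start, occurs in 2.22% of all 27025 windows of the table. The same place and strand were used for both searches, and a letter match is not evidence of a binding site. Shares over the gene lists are not given, because only 77.7% of the tissue-list genes have a window in the table.

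Skin had 26 of 28 genes above background, all 26 by at least 1 log2 unit, and 12 in the brightest 10%. The cornified envelope gene Sprr1a was at 12.55, the protease gene Asprv1 at 11.46, Dmkn at 10.95 and Hrnr, of the filaggrin type, at 10.87. The differentiation keratin Krt10 was at 10.84. Krt2 at 5.62 and Flg2 at 4.84 were the 2 within background. Stomach had 16 of 17 above background, with Psca at 10.84, Tff1 at 10.24 and the mucin gene Muc5ac at 9.36; the proton pump gene Atp4a was at 8.85. Lung and airway had 14 of 15, and 5 of these were in the brightest 10%. The airway secretory genes Bpifa1 and Scgb1a1 were at 12.05 and 11.39, the chitinase-like gene Chil1 at 11.97 and Cyp2f2 at 10.98. Of the surfactant genes, Sftpd was at 8.66 and Sftpb at 6.52. The urothelial plaque genes were above background in 5 of 5, between Upk1a at 8.48 and Upk3b at 6.76.

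Glands and endocrine organs were mixed, with a few very bright genes each. In the exocrine pancreas 18 of 22 genes were above background (81.8%, against 72.7% of all genes). At least 1 log2 unit above it were 11 (50.0%, against 54.1%). In the brightest 10% were 4. The ribonuclease gene Rnase1 was at 11.73 and the phospholipase gene Pla2g1b at 10.16. The chymotrypsinogen gene Ctrb1 was at 9.98 and the colipase gene Clps at 9.90. Pnliprp1 at 5.87, Prss3 at 5.17 and Reg2 at 4.51 were within background. In the pancreatic islet 14 of 20 were above background (70.0%, against 72.7% of all genes). The hormone genes Ppy, Sst and Iapp were at 10.64, 10.35 and 9.98, the granin gene Chga at 10.02 and Gcg, of glucagon, at 8.67, while Slc30a8, G6pc2 and Neurod1, at 4.80, 4.78 and 4.77, were within background. Pituitary and hypothalamic hormones were above background for 12 of 16, with the peptide genes Tac2 and Gal at 10.39 and 10.09 and Cga, the shared alpha chain of pituitary hormones, at 9.89. Prl at 4.59 and Crh at 4.33 were within background.

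Thyroid and parathyroid genes were above background for 9 of 11 (81.8%, against 72.7% of all genes). At least 1 log2 unit above it were 5 (45.5%, against 54.1%). The deiodinase gene Dio1 was at 10.60, the calcium-sensing receptor gene Casr at 8.68 and Pth, of parathyroid hormone, at 7.72; the thyrotropin receptor gene Tshr was within background at 4.82. Steroid and amine synthesis had 8 of 11 (72.7%, as over all genes), led by Cyp17a1 at 8.65. At least 1 log2 unit above background were 3 (27.3%, against 54.1% of all genes). The salivary and lacrimal list had 10 of 17, of which Lpo, a lactoperoxidase, was at 10.94, Mucl2 (listed as Spt1) at 10.53 and lactoferrin, Ltf, at 10.15. Smr2, Amy1 and Pip were within background at 4.78, 4.74 and 4.35. Milk proteins had 6 of 8 above background. The beta-casein gene Csn2 was at 12.92 and ranked 40 among all genes, against 5.15 for Csn1s2b.

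Of the internal organs, liver had 25 of 34 genes above background (73.5%, against 72.7% of all genes), 3 of them in the brightest 10%. The apolipoprotein genes Apoa1 and Apoc3 were at 10.59 and 10.50, transferrin, Trf, at 10.19, transthyretin, Ttr, at 9.63 and albumin, Alb, at 8.89. C9, Serpina6 and F9 were within background, at 5.13, 4.88 and 4.27. Kidney had 9 of 16, with 3 at least 1 log2 unit above background and 0 in the brightest 10%; Umod, the main urinary protein of the nephron, was at 7.31. Fat had 7 of 11 (63.6%, against 72.7% of all genes). The fatty acid binding protein gene Fabp4 was at 11.10, but Lep, of leptin, was within background at 5.05. Fabp4 is also transcribed by macrophages and endothelial cells, and Rnase1 and Chil1 are not confined to the listed tissue either.

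Muscle, brain and skeleton followed. Striated muscle and heart had 27 of 38 above background (71.1%, against 72.7% of all genes). Actn3, of fast fibres, was at 10.65 and cardiac troponin T, Tnnt2, at 9.96; the myosin heavy chain gene Myh1 was within background at 4.76. In the brain list 22 of 36 genes were above background (61.1%, against 72.7% of all genes). The synaptic vesicle gene Syt1 was at 11.93, the Purkinje cell gene Pcp4 at 10.45, Resp18 at 9.52 and neuropeptide Y, Npy, at 8.93. Neurod6 was among the dimmest genes of any list at 3.82. Cartilage, bone and tooth had 12 of 19 (63.2%, against 72.7% of all genes). Ucma, a cartilage matrix protein gene, was the brightest at 11.24, and the enamel gene Amelx was at 8.48.

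Germline, eye and male accessory gland genes were lowest. Testis had 11 of 32 above background. Fabp9, a fatty acid binding protein of sperm, was at 11.34 and the relaxin-like gene Insl6 at 8.30, while the meiotic genes Sycp3 and Sycp1 were within background at 4.19 and 4.09. Oocyte and placenta had 6 of 14, with the egg coat gene Zp2 at 9.88 and Ooep at 9.62. Retina and lens had 9 of 22. The lens crystallins Cryaa, Crybb1 and Crybb2 led it, at 8.81, 8.56 and 7.98, while Rpe65, of the visual cycle, was within background at 4.62. Inner ear had 4 of 8, led by Tectb at 7.03, and pigment cells had 5 of 8, led by Pmel at 7.01, with 0 at least 1 log2 unit above background. Epididymis, seminal vesicle and prostate had 2 of 14, Lcn8 at 6.84 and Svs2 at 6.34.

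**Figure D4:**
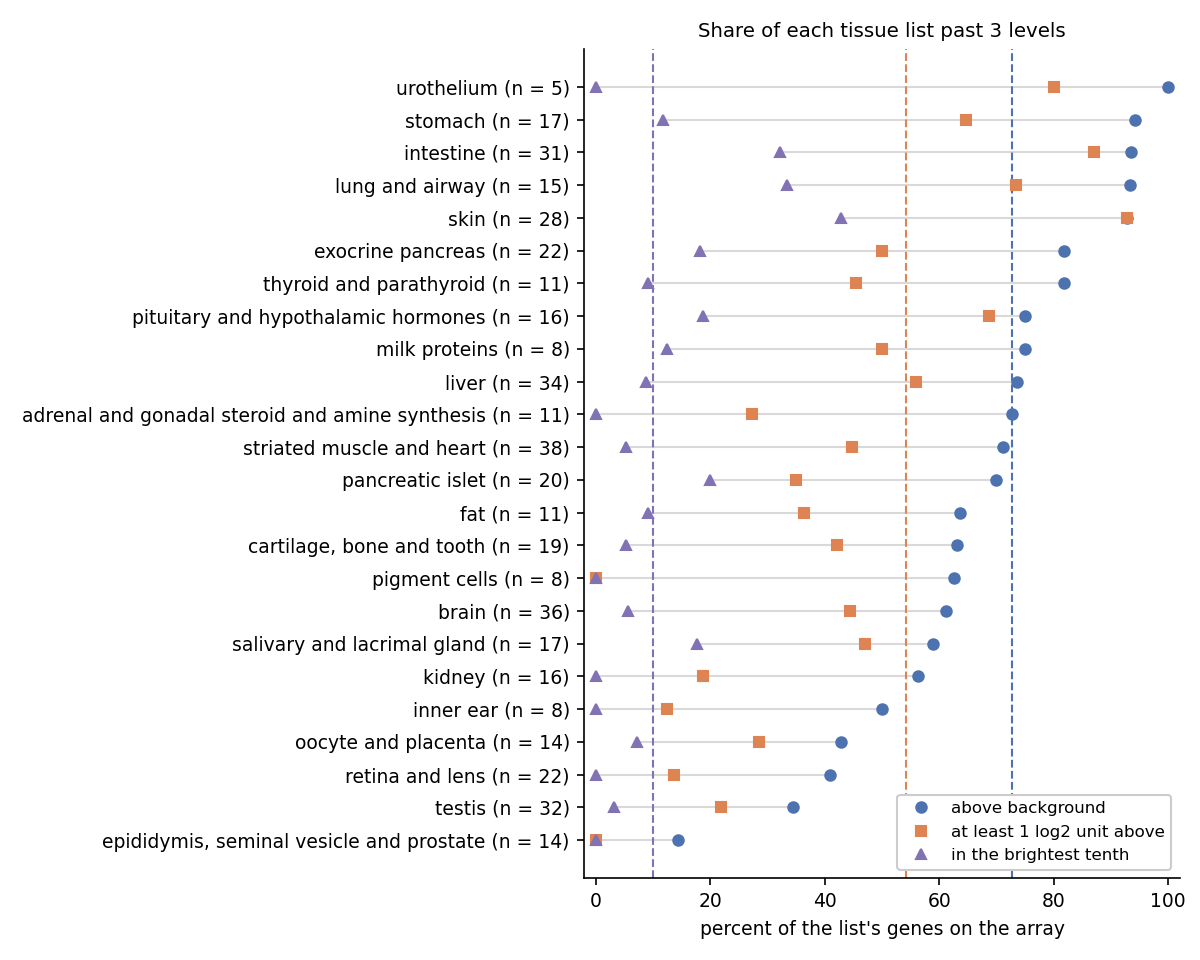
Percent of each tissue list's genes above background (circles), at least 1 log2 unit above it (squares) and in the brightest 10% (triangles). Dashed lines in the same colours are the shares of all genes, 72.7%, 54.1% and 10.0%. Intestine, skin and lung and airway lie to the right of all 3 lines, and testis and retina and lens lie to the left of all 3.

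The listed genes known from the literature to depend on Aire in mTECs were bright, with a median of 10.45. Above background were 13 of 13, against 72.7% of all genes, and 9 were in the brightest 10% (69.2%, against 10.0%). This short list was chosen with earlier results of these data known. It does not stand for Aire-dependent genes in general. Csn2 was at 12.92, Fabp9 at 11.34, Tff3 at 11.29, Ppy at 10.64, Apoa1 at 10.59, Mucl2 at 10.53, Pcp4 at 10.45, Sst at 10.35 and S100a8 at 10.01. Bpifb1 was at 9.17 and the insulin gene Ins2 at 7.85. Muc6, a stomach mucin gene, was at 6.66 and Svs2, of the seminal vesicle, at 6.34. All these genes but S100a8 also stand in tissue lists, and S100a8 is also a neutrophil gene.

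Of the targets of autoimmune disease, 22 of 32 were above background (68.8%, against 72.7% of all genes) and 16 lay at least 1 log2 unit above it (50.0%, against 54.1%), shares near those of all genes. None of the 32 was in the brightest 10%, and their median was 7.03. The lung antigen gene Bpifb1 was highest at 9.17. The gastric proton pump genes Atp4a and Atp4b were at 8.85 and 7.83, and Cblif, of intrinsic factor (listed as Gif), was at 6.65. Of the adrenal and gonadal enzymes, Cyp17a1 was at 8.65 and Cyp11a1 at 6.37, while Cyp21a1 was within background at 5.59. Among enzymes that make transmitters, Tph1 was at 8.56, Gad1 at 8.28, Th at 7.60 and Ddc at 7.05; Gad2 was within background at 5.10.

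The islet antigens differed among themselves: Ins2 was at 7.85 and Ptprn at 7.02, but Slc30a8 and G6pc2 were within background, at 4.80 and 4.78. In the nervous system, Mbp, of myelin, was at 8.60, while Mog, another myelin antigen gene, was within background at 5.96. In muscle, Ttn was at 7.80 and Chrna1, the acetylcholine receptor chain targeted in myasthenia gravis, was at 6.94, while the cardiac myosin gene Myh6 was within background at 5.54. For the eye, Sag was at 6.65 and Rbp3 within background at 4.99. For skin and cartilage, Dsg3, the pemphigus antigen gene, was at 7.39 and Col2a1 at 7.51, and the pigment cell gene Tyr was within background at 4.92. Tg, of thyroglobulin, was at 7.27 but Tshr was within background at 4.82. The liver antigen Cyp1a2 was at 8.24, and the ovarian antigen genes Zp3 and Nlrp5 were at 7.23 and 6.55. The prostate antigen gene Tgm4 was within background at 5.30.

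Gene families that share a function are to be read against the 72.7% of all genes that were above background. Kallikreins, serine proteases of skin and glands, had 21 of 22 above background and 6 in the brightest 10%, led by Klk1b11 at 11.74, Klk7 at 10.28 and Klk1b22 at 10.22. Several Klk1b genes are close copies that probes may not separate. Keratins had 39 of 48 above background, with Krt8, Krt17 at 12.87 and Krt18 the brightest. Beta-defensins, epithelial antimicrobial peptides, had 13 of 40, with Defb6 at 11.68 and Defb3 at 10.71 far over the family median of 5.55. Under the share of all genes, serpins had 29 of 48 (60.4%), led by Serpinb1a at 12.31. Cytochrome P450 genes had 47 of 87 (54.0%), led by Cyp2f2, Cyp2g1 at 10.72 and Cyp2b19 at 10.27. The prolactin family, made mainly by the placenta, had 1 of 19, Prl5a1 at 6.66, and the major urinary proteins of the liver had 0 of 3. Hox genes, which pattern the body axis, had 18 of 38 (47.4%), with Hoxb9 the brightest at 7.35. Collagens had 42 of 44 but 0 in the brightest 10%, led by Col14a1 at 9.27.

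Brightness varied between adjacent genes of a cluster. The following loci were chosen after their values were seen. Only protein-coding genes with a level here are counted in them, so genes without a level may lie between. In the casein locus on chromosome 5, genes in chromosomal order were at 8.09 for Csn1s1, 12.92 for Csn2, 9.63 for Csn1s2a and 5.15 for Csn1s2b. Further on, Prr27 at 5.72 and Odam at 5.65 were within background, BC037156 was at 7.05 and Csn3 at 6.29, so 5 of 8 genes were above background. In the Reg locus on chromosome 6, Reg3b was at 8.54 and Reg1 at 8.93. Between them Reg3d at 4.62, Reg3a at 5.90 and Reg2 at 4.51 were within background, and Reg3g followed at 13.09. Genes above and within background thus lay side by side, Csn1s2a beside Csn1s2b and Reg1 beside Reg2, while the neighbours of Csn2 were above background.

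In the apolipoprotein locus on chromosome 9, 4 of 4 genes were above background, Apoa1 at 10.59, Apoc3 at 10.50, Apoa4 at 11.58 and Apoa5 at 6.73. In the BPI fold locus on chromosome 2, 9 of 12 genes were above background, up to Bpifa1 at 12.05, which lies beside Bpifa3 at 5.06. In the epidermal differentiation complex on chromosome 3, 25 of 45 genes were above background, from Lce3e at 4.09 to S100a11 at 13.14. Its Sprr2 and Lce genes are close copies, so single values there are uncertain.

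**Figure D5:**
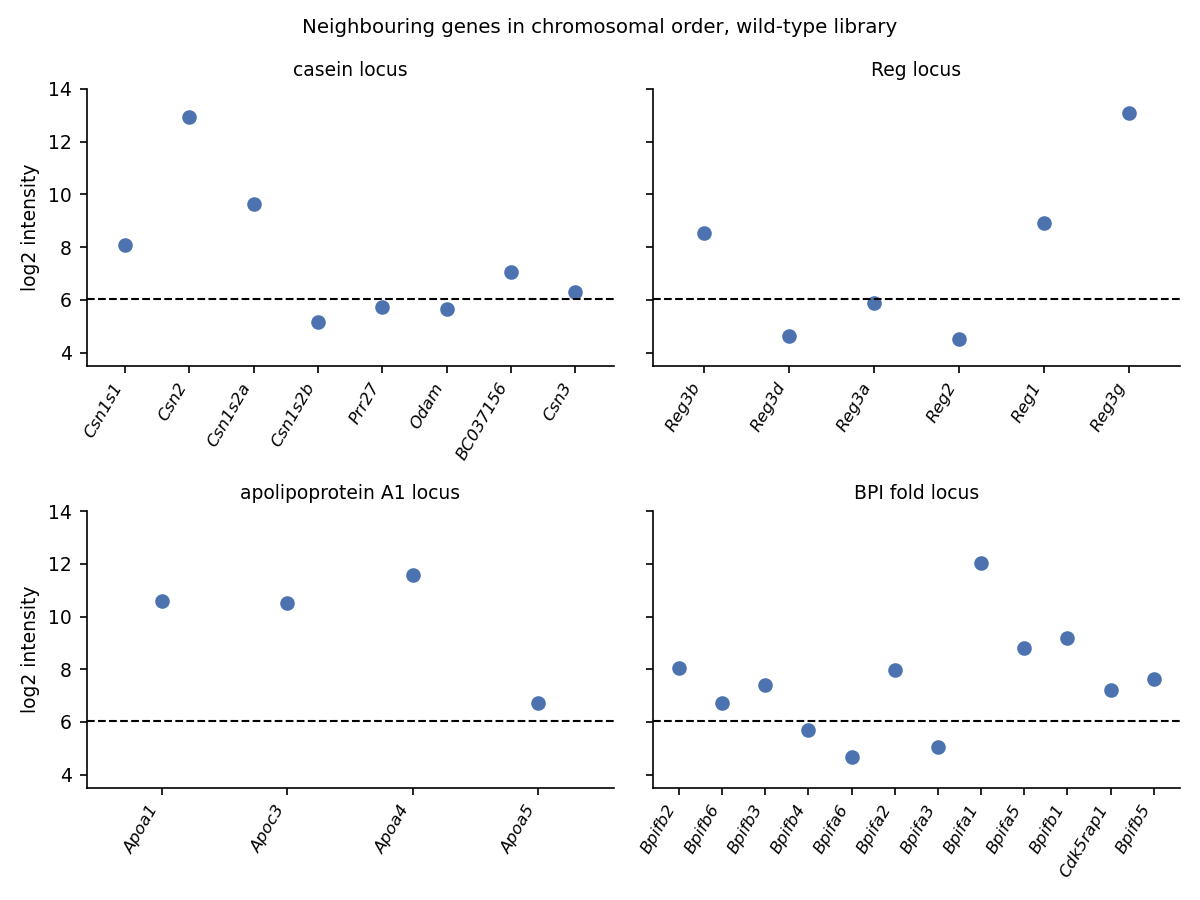
Log2 intensity of neighbouring protein-coding genes with a level, in chromosomal order at 4 loci, 1 point per gene. The dashed line is the background of 6.02. Csn2 at 12.92 and Reg3g at 13.09 stand in loci where 3 genes each are within background, whereas all 4 genes of the apolipoprotein locus are above it.

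Neighbours were also counted over the genome, as the next protein-coding gene with a level here on either side. Protein-coding genes without a level were skipped. Of all 18550 genes placed in this order, 88.5% had at least 1 neighbour above background and 61.6% had both. Of 304 tissue-list genes above background with a place in this order, 93.4% had at least 1 neighbour above background. Over all genes above background this share was 95.8%. Both neighbours were above background for 66.8% of the tissue genes and 70.1% of all genes above background. For the 147 tissue-list genes within background, the shares were 80.3% for at least 1 neighbour and 42.9% for both. The matching shares of all genes within background were not counted. The shares of genes above background are not a reference for them.

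Genes of cell types that the gate should remove were described in the same way. Over these lists together 89 of 112 genes (79.5%, against 72.7% of all genes) were above background and 56 (50.0%, against 54.1%) lay at least 1 log2 unit above it, with a median of 7.02 and 11 genes in the brightest 10%. Their part in the values of the tissue genes was not tested. Thymocyte genes ranged from 4.44 to 7.93 with 11 of 17 above background: Cd3g was at 7.93, Cd8b1 at 7.82 and Cd4 at 7.66, and the recombination gene Rag2 was within background at 4.44. Natural killer cell genes had 4 of 8 above background, with Eomes the brightest at 7.24. Endothelial genes had 10 of 13, of which 2 lay at least 1 log2 unit above background, with Tek the brightest at 7.71 and Kdr and Emcn, receptor and surface genes of vessels, within background at 5.68 and 4.74. Erythroid genes had 7 of 7, from 6.02, at the background itself, up to the carbonic anhydrase gene Car1 at 8.87. At least 1 log2 unit above background were 3 of them (42.9%, against 54.1% of all genes), and their median was 6.93.

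The other lists held genes in the brightest 10% and, except for the pan-leukocyte genes, also genes within background. Among dendritic cell and macrophage genes 17 of 19 were above background. Lyz2 was at 12.06, the complement gene C1qb at 9.55 and Cd68 at 9.14; the growth factor receptor gene Csf1r was at 7.68. The 2 members within background were Fcgr1 at 5.77 and, lower still, Clec9a. Neutrophil and eosinophil genes had 15 of 18, with Lcn2 at 11.91, Ly6g at 10.97 and S100a8 at 10.01. Their receptor genes Csf3r and Cxcr2 were within background at 5.79 and 4.98. Fibroblast and mural cell genes had 12 of 16: Rgs5, of pericytes, was at 11.66, fibronectin, Fn1, at 10.32 and Acta2 at 10.31, whereas Pi16, Dpt and Lum were within background at 5.70, 5.04 and 4.91. B cell genes had 7 of 8, with Fcer2a at 10.33, Cd79b at 9.49 and Cd79a within background at 5.31. Of the pan-leukocyte genes 6 of 6 were above background, with Laptm5 and Cd52 at 12.44 and 12.38 and Coro1a, the dimmest, at 7.55.

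Calls near the background are the least firm, and the counts of many lists rest on such genes: at 1 log2 unit above background, 31 of the 49 lists kept a count within 1.5 times. The genes just above it were Pxylp1, Il31ra and Gata1, and those just within it were Birc7, Alkal2 and Ccdc151, all of them at 6.02. Of the tissue lists, the steroid enzyme gene Cyp11b1 was just above at 6.02 and the sperm acrosome gene Acrv1 just within at 6.01. The probe set rule matters as well: 954 genes had several probe sets, whose brightest and dimmest differed by a median of 1.28 log2 units. For 254 of them (26.6%) these lay on opposite sides of the background.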

How the data were processed

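Per the labels' protocols, amplified RNA of sorted cells went onto Affymetrix Mouse Gene 1-ST arrays; the authors deposited 1 intensity per probe set and library on a linear scale. The values were made with RMA, per the submitters' processing notes. The software, its version and the step to a linear scale were not given in the sources used here. RMA equalises distributions between arrays and fits each probe set over all arrays together, so a library's values depend in part on the other arrays.

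Only the wild-type column was read. Its intensity was taken to log2 with no pseudocount. Probe sets with 1 symbol in the platform annotation were kept, with the brightest per gene; 1321 had several symbols and 11799 had none listed. The Entrez identifiers of 99.6% of genes matched the RefSeq table of GRCm38.p6, used for names, gene order and promoters. Of 784 listed genes, 734 were on the array, 6 of them under another symbol. Python 3.11.15, numpy 2.4.6, pandas 2.3.3 and matplotlib 3.10.9 were used; the counting was tested on simulated data. With 1 library no test was made, and the number of arrays limits the precision.

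The genes and lists were chosen with earlier results of these data known. Genes named are the fixed markers, gate genes, 30 brightest genes, up to 6 brightest and 3 dimmest of each list, up to 3 brightest of each family, those nearest the background and every Aire-dependent antigen and autoimmune target listed. Others named, such as Rfx5, Ciita, Top2a, Sftpd, Ptgs2, the dimmer family members and the loci, were chosen after their values were seen, as was the level of the brightest 10%. Alternatives were other backgrounds, other probe set rules, and 1 or 2 log2 units over background; the last was added after seeing the data.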

Additional observations from a re-analysis of the deposited data

Results flagged for a closer look

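Signal also appeared in probe sets that no gene above stands for. Of the 1321 probe sets with several gene symbols, 822 (62.2%) were above background, and of the 11799 with no symbol listed, 5432 (46.0%) were. Among probe sets with exactly 1 symbol the share was 72.3%. These probe sets were left out because a level could not be given to a single gene.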

How the results depend on the processing

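Counts above background depended mainly on where the background was set. With the brightest Olfr gene as background (9.03), 3473 genes were above it, of which 68 were tissue-restricted, 89 epithelial and 15 of other cell types, with 0 of the other receptor families. At least 1 log2 unit above the background, 56 genes of other cell types were left, and at least 2 log2 units above it, 6942 genes in all, 125 tissue-restricted and 25 of other cell types. Above background were 9 genes of the other receptor families at the 95th percentile of Olfr genes, 15 at the 90th, 5 at the 99th, 5 at 1 log2 unit over and 1 at 2 log2 units over. The remaining alternatives moved these counts by less than 1.5 times. The tissue genes' share minus that of all genes was -5.17 percentage points; it turned to 1.36 with the vomeronasal receptors as background (5.08) and stayed negative in the other settings. The share of other cell types minus that of all genes, 6.75 percentage points, turned negative at the 99th percentile (-2.59), with the brightest Olfr gene (-4.03), and at 1 (-4.14) and 2 (-12.5) log2 units over.

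Stomach, intestine, lung and airway, and skin were over the share of all genes in all 10 settings; retina and lens, testis, oocyte and placenta, and the male accessory glands were under it in all 10; the other 16 lists changed sides. Of the 30 brightest genes, 18 were shared with the mean of probe sets, 18 with the dimmest and 16 among genes with 1 probe set. With both neighbours required, 66.8% of tissue genes qualified. TATAAA was also searched anywhere in the window on either strand; no share over the tissue lists is given from either search, since fewer than 80% of their genes have a promoter window. No paired analysis was possible because each group has 1 library.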
